A study of Mus musculus with 9 samples.

Results

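The Hox genes were measured on single-colour oligonucleotide arrays in 3T3-L1 cells, which are mouse fibroblasts of embryonic origin that form adipocytes when induced. A gene was taken where the platform's symbol was Hoxa, Hoxb, Hoxc or Hoxd followed by a number and its probe set carried that 1 symbol, and where several did, the brightest by 9-array mean stood for the gene. This gave 36 genes of 22180 on the arrays. Hoxa11 and Hoxd4 were found only on probe sets shared with another gene and are described with those further on. This rule reads symbols and no expression value.

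The study compared 3 groups of 3 arrays. In the first, 3T3-L1 pre-adipocytes transfected with 100 nmol of an siRNA against CD24, a small surface glycoprotein, were given IBMX and Dex for 6 h. In the second, the cells had 100 nmol of a scrambled siRNA and the same 6 h of IBMX and Dex. The third group had vehicle. IBMX (0.5 mM) inhibits phosphodiesterases and so raises cAMP, and Dex (dexamethasone, 1 µM) is a synthetic glucocorticoid, and together they form part of the usual adipogenic mixture. All cells were of the same line, confluent and held in growth arrest for 48 h. The labels do not say whether vehicle cells received an siRNA, so a difference from vehicle cannot be told apart from one of transfection. Whether the replicates came from separate cultures is not stated either: p-values here reflect only how far these samples spread, which may be technical.

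Hox genes encode homeodomain transcription factors that give cells their position along the head-to-tail axis and along the limbs. Mice carry them in 4 clusters, HoxA on chromosome 6, HoxB on chromosome 11, HoxC on chromosome 15 and HoxD on chromosome 2, and genes at the same place in each cluster form a paralog group. Low-numbered genes lie at one end and act towards the head, and high-numbered genes lie at the other end and act towards the tail and the tips of limbs. Adult fibroblasts and pre-adipocytes keep a Hox pattern that reflects the body site they came from. Polycomb proteins keep silent clusters shut, Trithorax proteins keep active ones open, retinoic acid opens them in the embryo, and Hox proteins bind DNA together with TALE homeodomain cofactors of the Pbx, Meis and Pknox families.

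The arrays were close in overall level, with medians between 6.47 and 6.56 on the log2 scale. Cd24a, the siRNA's target, read 10.15, 10.16 and 11.72 with CD24 siRNA and IBMX/Dex (replicates 1 to 3), 11.19, 11.73 and 11.81 with scrambled siRNA and IBMX/Dex, and 8.88, 9.92 and 9.49 with vehicle, as log2 levels. A second, dimmer probe set of Cd24a read 7.22, 6.68 and 9.08 with CD24 siRNA and IBMX/Dex. It read 9.28, 8.72 and 9.25 with scrambled siRNA and IBMX/Dex, and 6.78, 6.42 and 6.69 with vehicle. The array labelled CD24 siRNA replicate 3 thus lay among the scrambled arrays for its target on both probe sets. The CD24 siRNA results are also given without that array. Most fibroblast and pre-adipocyte markers were bright: 11 of the 12 measured passed the filter used for testing, among them Vim, Dcn and Fn1. Lum did not pass, with a 9-array mean of 4.90, and Cd34 passed with a mean of 6.65. Of the markers of other cell types, Adipoq (adipocytes) had a 9-array mean of 5.51, Ptprc (leukocytes) 4.70 and Epcam (epithelium) 4.86. Kdr (endothelium) had 5.83, Sp7 (osteoblasts) 5.76 and Actn2 (striated muscle) 5.25, and all of these lay under the filter level of 6.51. Others on the same lists passed it, with means of 11.08 for Lpl, 9.60 for Fabp4 and 6.70 for Cd36 (adipocyte list), 8.61 for Cd14, 8.26 for Cd68 and 6.97 for Csf1r (macrophage list), 7.61 for Des, 7.03 for Myog and 6.55 for Myod1 (muscle list), 6.75 for Cdh5, 6.83 for Krt14, 6.54 for Krt8 and 7.44 for Col2a1.

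The first question was which Hox genes gave a signal in vehicle-treated cells. Testing was limited to genes with at least 3 of 9 values at or above 6.51, the median of the whole table. Of the 36 Hox genes 17 met this, and of all 22180 genes 12630 did. Of the 17, 0 reached that level on vehicle arrays alone, and 14 stood above the median of every vehicle array. Genes of the HoxA cluster from Hoxa2 to Hoxa7 all passed (6 of 9 measured), as did 5 of 10 of HoxB, 5 of 8 of HoxD and 1 of 9 of HoxC. Median log2 levels over the measured genes of a cluster on the vehicle arrays were 7.98 for HoxA (5.67 to 8.74), 6.43 for HoxB (4.88 to 7.28), 6.19 for HoxC (5.39 to 7.73) and 6.62 for HoxD (5.85 to 8.71). Probe sets differ in how brightly they bind, so these levels say which genes stood clear of the array-wide median, and not which were most abundant.

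Within HoxA the levels broke between Hoxa7 and Hoxa9. On vehicle arrays 1 to 3, Hoxa2, a gene of the hindbrain and second pharyngeal arch, read 8.50, 9.08 and 8.65. Hoxa6 read 8.47, 8.77 and 8.60, and Hoxa5, which in the mouse is needed for lung and axial skeleton, read 7.96, 8.20 and 7.98. All of these were more than 1 log2 unit above the filter level on every vehicle array. By contrast, Hoxa9, a gene of blood progenitors and the posterior axis, read 5.71, 5.73 and 5.57. Hoxa10, which acts in the uterus and posterior skeleton, read 5.97, 5.61 and 5.74, and Hoxa13, a gene of digits and the urogenital tract, read 6.34, 6.24 and 6.25. These 3 did not reach the filter level on any of the 9 arrays.

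HoxD genes from Hoxd1 to Hoxd10 were tested wherever they had a probe set of their own, and Hoxd11 to Hoxd13 were not. Hoxd8 read 8.86, 8.57 and 8.70 on vehicle arrays 1 to 3, and Hoxd10, a gene of the lumbar spinal cord and hindlimb, read 7.39, 7.72 and 7.01. Hoxd1 read 6.55, 6.56 and 6.36, just around the filter level. Hoxd11, Hoxd12 and Hoxd13, the genes of forearm and digit patterning, had vehicle means of 5.87, 5.85 and 6.07. In HoxB, Hoxb2 and Hoxb3, which pattern the hindbrain, had vehicle means of 7.03 and 7.28 and were tested, while Hoxb7 and Hoxb8 had 5.19 and 4.88 and were not. In HoxC the gene with the highest number passed alone: Hoxc13, a regulator of hair and nail keratins, read 8.14, 7.39 and 7.65, and its 8 neighbours from Hoxc4 to Hoxc12 were not tested. Hoxc8 and Hoxc9, which are used as markers of white adipose pre-adipocytes in the mouse, were among these, with vehicle means of 5.87 ± 0.16 and 6.54 ± 0.26 (SD, n = 3). Hoxc9 stood above the filter level on vehicle arrays 1 and 2 (6.53 and 6.81) but on no treated array. It was thus left out of testing although its vehicle mean was above that of Hoxd1 (6.49).

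By paralog group, 6 of 7 measured genes of groups 1 to 3 were tested, 7 of 14 of groups 4 to 8 and 4 of 15 of groups 9 to 13. Vehicle medians were 7.27, 6.43 and 6.19 for these 3 spans. The gene nearest the filter among those tested was Hoxd1, whose value of rank 3 was 6.57, and the nearest outside was Hoxc12, at 6.42. Dim probe sets showed a sign of limited resolution: 11 of the 19 untested Hox genes and 7 of the 17 tested had a value repeated exactly on another array, where 54.7% of all untested and 26.7% of all tested genes did. Hoxb1 read 6.11 on 6 arrays, and Hoxb3 read 7.23 on all 3 scrambled siRNA arrays, so its SD of 0 there is no measure of error. The SD of the 17 tested genes over the vehicle arrays had a median of 0.16 log2 units (0.026 to 0.42).

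**Figure D1:**
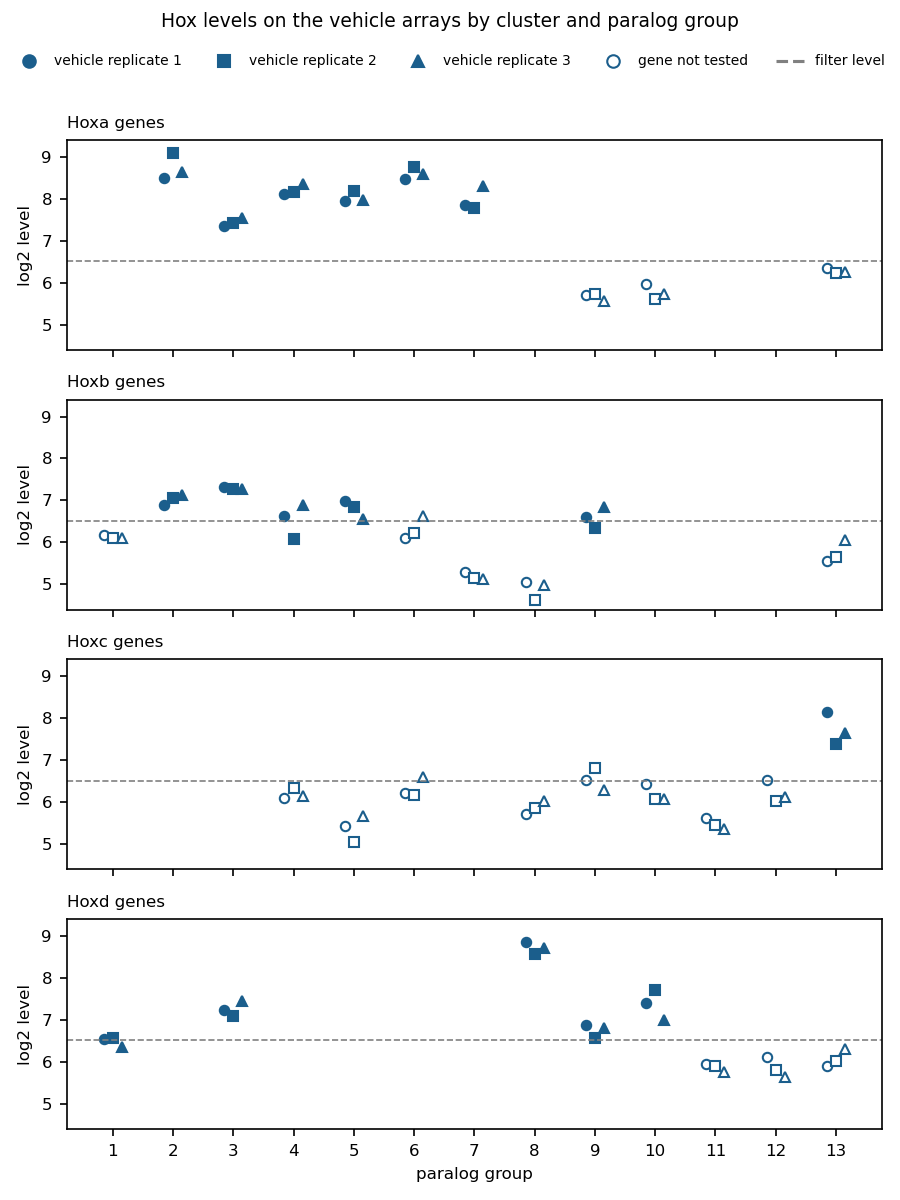
Log2 level (vertical axis) of the 36 Hox genes on the 3 vehicle arrays (1 symbol shape each), by paralog group (horizontal axis) and cluster; open symbols are genes that were not tested, and the dashed line is the filter level of 6.51. Hoxa2 to Hoxa7 lie above the line and Hoxa9 to Hoxa13 below it, and in HoxC only Hoxc13 lies wholly above it.

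The next comparison asked how 6 h of IBMX/Dex with the scrambled siRNA changed these levels. No Hox gene passed an adjusted p of 0.05 in limma without a replicate block, in either direction, where 3.6% of the 12630 genes tested were lower and 3.33% higher. At an unadjusted p under 0.05 there were 4 Hox genes of 17, or 23.5%, against 2873 genes, or 22.7%, of all. Same-numbered arrays of the 3 groups deviated together, so the replicate number was also fitted as a block, and there 3 Hox genes were lower, Hoxa4, Hoxa7 and Hoxc13, and 0 higher. At an unadjusted p under 0.05 in the block fit there were 7 of 17, or 41.2%, against 36.0% of all genes. The block called 11.4% of all genes lower and 11.9% higher, so 3 of 17 lower (17.6%) is a small count set against a high background. The median difference of the 17 was -0.06 log2 units, against 0.02 for all genes tested, and was -0.11, -0.09 and -0.18 for numbers 1 to 3. In bulk RNA, less RNA per cell and fewer cells with that RNA cannot be told apart.

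Hoxa7, a gene of the thoracic axis, had the smallest adjusted p of the 17 in the fit without the block. It read 7.26, 7.56 and 7.43 with scrambled siRNA and IBMX/Dex, against 7.85, 7.79 and 8.31 with vehicle, as log2 levels. Every treated array was below every vehicle array. The difference was -0.57 ± 0.15 SE, or 1.48-fold lower (limma adjusted p = 0.0550 without the block and 0.0137 with it), and by number it was -0.59, -0.23 and -0.88.

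Hoxc13 read 7.20, 7.15 and 6.99 with scrambled siRNA and IBMX/Dex, against 8.14, 7.39 and 7.65 with vehicle. These ranges did not overlap either, and the vehicle arrays were spread more widely than the treated ones. The log2 difference was -0.61 ± 0.21 SE, or 1.53-fold lower (limma adjusted p = 0.120 without the block and 0.0108 with it), and by number it was -0.94, -0.24 and -0.66.

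Hoxa4, a neighbour of Hoxa5 that acts in the cervical and thoracic axis, read 7.69, 7.98 and 7.88 with scrambled siRNA and IBMX/Dex, against 8.10, 8.17 and 8.36 with vehicle. The groups did not overlap. The log2 difference was -0.36 ± 0.12 SE, or 1.28-fold lower (limma adjusted p = 0.103 without the block and 0.0426 with it), and by number it was -0.42, -0.18 and -0.48.

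The promoters of genes that passed with the block can be set beside that of a neighbour that did not pass. Of the 36 genes, 20 had an entry in the RefSeq promoter table, with 22 promoters, and Hoxa7, Hoxd3 and Hoxa5 are shown as the 250 bases before the annotated start, 5′ to 3′ on the gene's strand. Hoxa7 was lower with IBMX/Dex in the block fit, Hoxd3 is described with CD24 siRNA further on, and Hoxa5 had the largest positive difference of the 17. Capitals mark TGACG, the short form of the CREB site, read on either strand (CGTCA on the other).
Hoxa7 (GRCm38.p6, chr6:52218574-52218823, minus strand): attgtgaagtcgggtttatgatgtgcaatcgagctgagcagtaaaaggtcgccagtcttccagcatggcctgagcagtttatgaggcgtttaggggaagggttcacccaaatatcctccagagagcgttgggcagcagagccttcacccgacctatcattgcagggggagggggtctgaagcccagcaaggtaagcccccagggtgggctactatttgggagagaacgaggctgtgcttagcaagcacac
Hoxd3 (GRCm38.p6, chr2:74711743-74711992, plus strand): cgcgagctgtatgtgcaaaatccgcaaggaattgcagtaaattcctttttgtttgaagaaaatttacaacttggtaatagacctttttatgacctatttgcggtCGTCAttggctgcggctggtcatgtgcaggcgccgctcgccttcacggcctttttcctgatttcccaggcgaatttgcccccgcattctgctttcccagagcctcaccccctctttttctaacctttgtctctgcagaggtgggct
Hoxa5 (GRCm38.p6, chr6:52204588-52204837, minus strand): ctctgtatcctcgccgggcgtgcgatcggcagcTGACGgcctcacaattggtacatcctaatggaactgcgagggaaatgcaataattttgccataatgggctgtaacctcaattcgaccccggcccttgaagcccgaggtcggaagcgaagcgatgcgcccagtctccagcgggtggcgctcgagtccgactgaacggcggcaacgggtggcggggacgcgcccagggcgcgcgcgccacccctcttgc

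These letters begin 146 bases before the start in Hoxd3 and 217 bases before it in Hoxa5, and the Hoxa7 window has none. CREB is the factor that cAMP activates, and TGACG is short: 17.8% of all 32851 promoters in the table held TGACG on either strand, and 6 of the 22 Hox promoters did. The full site, TGACGTCA, which contains TGACG, was in 1.55% of all promoters and in 0 of the 22. AGAACA, the short form of the glucocorticoid receptor site, was in 16.1% of all and in 1 of the 22 (Hoxa9). The TATA box TATAAA was in 12.4% of all and in 3 Hox promoters, and TGATNNAT, a composite letter pattern for Hox and Pbx proteins, was in 7.68% of all and in 4. Hox promoters had a median G and C content of 59.2%, where all promoters had 52.4%, and a median ratio of observed to expected CpG of 0.721, where all had 0.374. Of the 3 shown, Hoxa7 had 54.8% and 0.386, Hoxd3 49.2% and 0.802, and Hoxa5 63.6% and 1.11. A letter match is no evidence that a factor binds.

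The other 14 tested genes did not pass in either fit with scrambled siRNA and IBMX/Dex. Hoxa5, a gene also studied as a regulator of adipocyte differentiation in the mouse, had the largest positive difference. It read 8.17, 8.49 and 8.20 with scrambled siRNA and IBMX/Dex, against 7.96, 8.20 and 7.98 with vehicle. The groups overlapped, with the highest vehicle array just above the lowest treated one. The log2 difference was 0.24 ± 0.14 SE (limma adjusted p = 0.340 without the block and 0.128 with it), positive in all 3 numbers, and its 95% interval was -0.07 to 0.55.

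Hoxd9, a gene of the upper limb and lumbar axis, read 6.55, 6.52 and 6.09 with scrambled siRNA and IBMX/Dex, against 6.87, 6.57 and 6.81 with vehicle. The ranges just failed to touch, and number 3 carried most of the gap. The log2 difference was -0.36 ± 0.21 SE (adjusted p = 0.339). Hoxb4, known for expanding blood stem cells, read 6.63, 6.63 and 6.69, against 6.63, 6.07 and 6.90 with vehicle. Its difference of 0.12 had the sign of number 2 alone, since number 1 gave 0.00 and number 3 gave -0.21. Hoxd10 read 7.52, 7.46 and 7.46, against 7.39, 7.72 and 7.01 with vehicle, a difference of 0.11 made of 0.13, -0.25 and 0.45.

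Counting groups that did not overlap, 6 Hox genes had every treated array below every vehicle array (Hoxa4, Hoxa7, Hoxb3, Hoxc13, Hoxd3 and Hoxd9), where 12.4% of all tested genes did, and 0 had every one above, where 12.8% did. With 3 arrays against 3, an exact permutation test of 1 gene cannot go below a two-sided p of 0.1, so these are counts and not calls. By cluster, 5 of 6 HoxA genes had a negative log2 difference (median -0.19, -0.57 to 0.24), 3 of 5 HoxB genes (median -0.02, -0.05 to 0.12), the 1 HoxC gene and 3 of 5 HoxD genes (median -0.27, -0.36 to 0.11). The 5 HoxB genes thus lay within 0.12 of 0, although the median 95% interval of a Hox difference reached 0.34 log2 units to either side.

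The calls of the block fit changed when single arrays were left out. The count of 3 lower Hox genes was 0 without scrambled replicate 1 or 3, 1 without vehicle replicate 1, 6 without vehicle replicate 2, and 2 without CD24 siRNA replicate 2, scrambled replicate 2 or vehicle replicate 3. Hoxa7 was lost without scrambled replicate 1 (adjusted p = 0.0649) or 3 (0.0804), and Hoxc13 without scrambled replicate 1 (0.0544) or 3 (0.0580) or vehicle replicate 1 (0.0573). Hoxa4 was lost in 6 of the 9 cases, without scrambled replicate 1 (0.161), 2 (0.0573) or 3 (0.154), vehicle replicate 1 (0.0903) or 3 (0.139) or CD24 siRNA replicate 2 (0.0673). Without the block, Hoxa7 passed after quantile normalization (adjusted p = 0.0367).

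**Figure D2:**
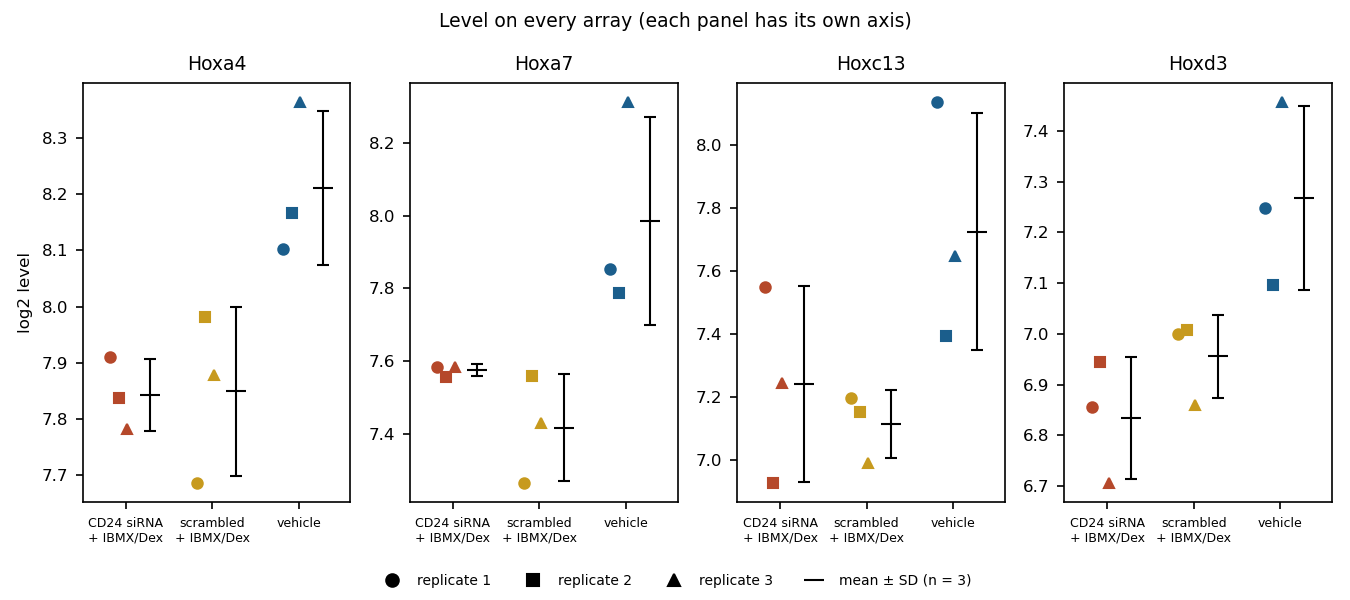
Log2 level (vertical axis, separate for each panel) of Hoxa4, Hoxa7, Hoxc13 and Hoxd3 on every array, with CD24 siRNA and IBMX/Dex, scrambled siRNA and IBMX/Dex, and vehicle from left to right; symbol shapes are replicate numbers and bars are means ± SD (n = 3). Vehicle arrays lie above all treated arrays in Hoxa4, Hoxa7 and Hoxd3, while in Hoxc13 the CD24 siRNA array of number 1 (7.55) lies above the vehicle array of number 2 (7.39).

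The CD24 siRNA arrays were compared with the same 3 vehicle arrays, so both comparisons move with any deviation of those arrays, and their values are given side by side. No Hox gene passed without the block, where 3.73% of genes tested were lower and 2.92% higher, and 4 Hox genes and 2807 of all genes had an unadjusted p under 0.05. With the block 3 Hox genes were lower, Hoxa4, Hoxc13 and Hoxd3, where 12.1% of all genes were lower, and 0 were higher, where 10.4% were, and an unadjusted p under 0.05 was found for 35.3% of the Hox genes and 35.2% of all genes. The median of the 17 differences was -0.18 log2 units, against 0.02 for all genes, and by number it was -0.03, -0.20 and -0.27. The groups did not overlap in 5 Hox genes that were lower (Hoxa4, Hoxa6, Hoxa7, Hoxb3 and Hoxd3), where 13.7% of all genes were, and in 0 that were higher, where 12.1% were.

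Hoxd3, which acts in the first cervical vertebrae of the mouse, had the smallest adjusted p in this comparison without the block, and Hoxc13 with it. Hoxd3 read 6.86, 6.94 and 6.71 with CD24 siRNA and IBMX/Dex, 7.00, 7.01 and 6.86 with scrambled siRNA and IBMX/Dex, and 7.25, 7.10 and 7.46 with vehicle. The vehicle arrays were the highest 3 of the 9. The log2 difference from vehicle was -0.43 ± 0.12 SE with CD24 siRNA, or 1.35-fold lower (limma adjusted p = 0.0708 without the block and 0.0327 with it), and -0.31 ± 0.12 SE with scrambled siRNA (adjusted p = 0.172 without the block and 0.0977 with it).

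Hoxa4 read 7.91, 7.84 and 7.78 with CD24 siRNA and IBMX/Dex, below all 3 vehicle arrays. Its log2 difference from vehicle was -0.37 ± 0.12 SE (limma adjusted p = 0.102 without the block and 0.0415 with it). Hoxc13 read 7.55, 6.92 and 7.24, and its first array overlapped the vehicle range. Its difference was -0.49 ± 0.21 SE (adjusted p = 0.213 without the block and 0.0300 with it), with -0.59, -0.47 and -0.40 by number.

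Hoxa7 read 7.58, 7.56 and 7.58 with CD24 siRNA and IBMX/Dex, the narrowest spread of any of these 4 genes in a group. The values on numbers 1 and 3 were exactly the same, so this narrow spread is no measure of error. Its log2 difference from vehicle was -0.41 ± 0.15 SE (limma adjusted p = 0.144 without the block and 0.0514 with it). It thus passed with the block for scrambled siRNA and not for CD24 siRNA, which shows no difference between the siRNAs: that difference is tested further on. The largest positive differences from vehicle were those of Hoxb5 (0.14), Hoxa5 (0.12) and Hoxd10 (0.05), with adjusted p between 0.599 and 0.906. With CD24 siRNA and IBMX/Dex, Hoxa5 read 8.29, 8.25 and 7.96, and Hoxd10 read 7.44, 7.25 and 7.58. Hoxb5, a gene of the enteric nervous system and lung, read 7.00, 6.86 and 6.92 with CD24 siRNA and IBMX/Dex, 6.87, 6.70 and 6.90 with scrambled siRNA and IBMX/Dex, and 6.98, 6.84 and 6.56 with vehicle. A second probe set of Hoxb5 had the opposite sign with CD24 siRNA, with differences from vehicle of -0.06, -0.05 and -0.29 by number.

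With the array labelled CD24 siRNA replicate 3 left out, the block fit called 0 Hox genes lower, and the log2 differences of Hoxa4, Hoxc13 and Hoxd3 were -0.29 (adjusted p = 0.171), -0.54 (0.0596) and -0.34 (0.142). The count was also 0 without vehicle replicate 1 or 3, 1 without CD24 siRNA replicate 1 or 2, 2 without scrambled replicate 3, 4 without scrambled replicate 2 and 5 without vehicle replicate 2. Hoxa4 was lost without vehicle replicate 1 (0.0882) or 3 (0.138), CD24 siRNA replicate 2 (0.158) and scrambled replicate 3 (0.0719). Hoxc13 was lost without CD24 siRNA replicate 1 (0.0755) or 2 (0.140) and without vehicle replicate 1 (0.135) or 3 (0.0665). Hoxd3 was lost without CD24 siRNA replicate 1 (0.0943) and without vehicle replicate 1 (0.0788) or 3 (0.107).

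The direct question of the study was whether CD24 knock-down altered the response. Between CD24 siRNA and scrambled siRNA, both with IBMX/Dex, 0 Hox genes passed in limma, and so did 0% of the 12630 genes, with the replicate block and without it. At an unadjusted p under 0.05 there were 0 Hox genes and 30 genes in all without the block, and 0 and 219 with it. Log2 differences of the 17 ran from -0.17 (Hoxa2) to 0.16 (Hoxa7), with a median of -0.02 against -0.01 for all genes. No Hox gene had groups that did not overlap, where 1.54% of all genes were wholly lower and 0.879% wholly higher.

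The intervals show how precisely the difference between these labelled groups was measured. They include the array labelled CD24 siRNA replicate 3, so they do not bound the effect of CD24 knock-down. For Hoxa7 the log2 difference between CD24 siRNA and scrambled siRNA had a 95% interval of -0.18 to 0.49, for Hoxa4 -0.27 to 0.26, for Hoxd3 -0.40 to 0.16 and for Hoxc13 -0.35 to 0.60. Hoxa2 read 8.47, 8.59 and 8.49 with CD24 siRNA, against 8.44, 9.04 and 8.58 with scrambled siRNA, and number 2 (-0.46) made most of its group difference. With the array labelled CD24 siRNA replicate 3 left out, the median of the 17 was -0.02, the difference of Hoxa2 -0.16 and that of Hoxa7 0.15, with 0 genes passing. Hoxa5 (-0.12) and Hoxd3 (-0.12) followed Hoxa2 at the lower end, and Hoxc13 (0.13) and Hoxb5 (0.10) followed Hoxa7 at the upper end.

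**Figure D3:**
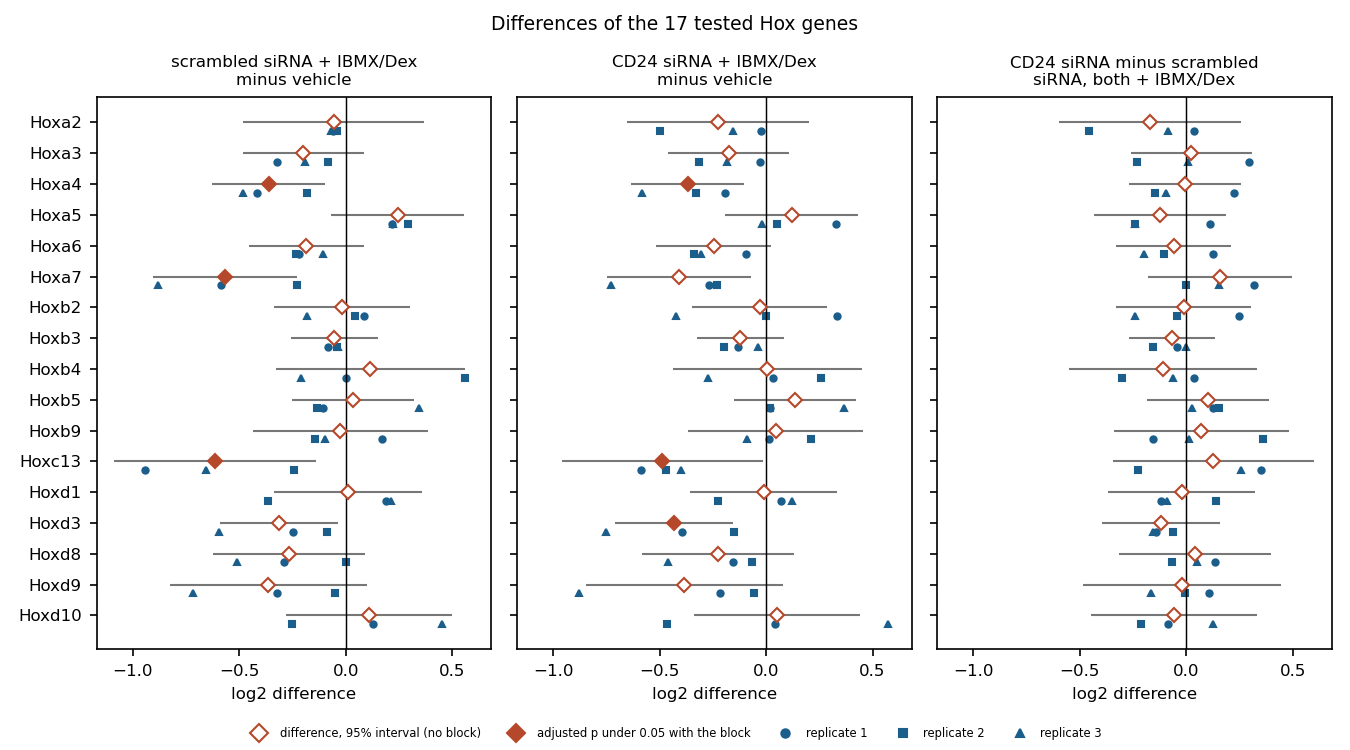
Log2 difference (horizontal axis) of the 17 tested Hox genes in the 3 comparisons, with diamonds for the group difference and lines for its 95% interval without the block; filled diamonds passed an adjusted p of 0.05 with the replicate block, and blue symbols are the differences between same-numbered arrays. Hoxa4, Hoxa7 and Hoxc13 are filled on the left and Hoxa4, Hoxc13 and Hoxd3 in the middle, and every interval on the right includes 0.

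Replicate number took a share of the spread close to that of group. Over the 9 arrays, group took a median of 35.3% of a tested Hox gene's sum of squares and replicate number 31.1%, where all tested genes had 28.3% and 36.2%. Group and number each take a part even of random spread over 9 arrays, so a share is not the size of an effect. Group took the larger share in 8 of the 17. It was largest for Hoxa4 (74.5%), Hoxd3 (73.3%) and Hoxa7 (71.2%). Number took 75.7% for Hoxb9, 64.9% for Hoxa2 and 56.6% for Hoxb4. Hoxb9, a gene of the thoracic axis and mammary gland, read 6.63, 6.56 and 6.75 with CD24 siRNA and IBMX/Dex, 6.78, 6.20 and 6.74 with scrambled siRNA and IBMX/Dex, and 6.61, 6.34 and 6.84 with vehicle, so number 2 was the lowest array of each group. Hoxa2 was highest on number 2 in each group.

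**Figure D4:**
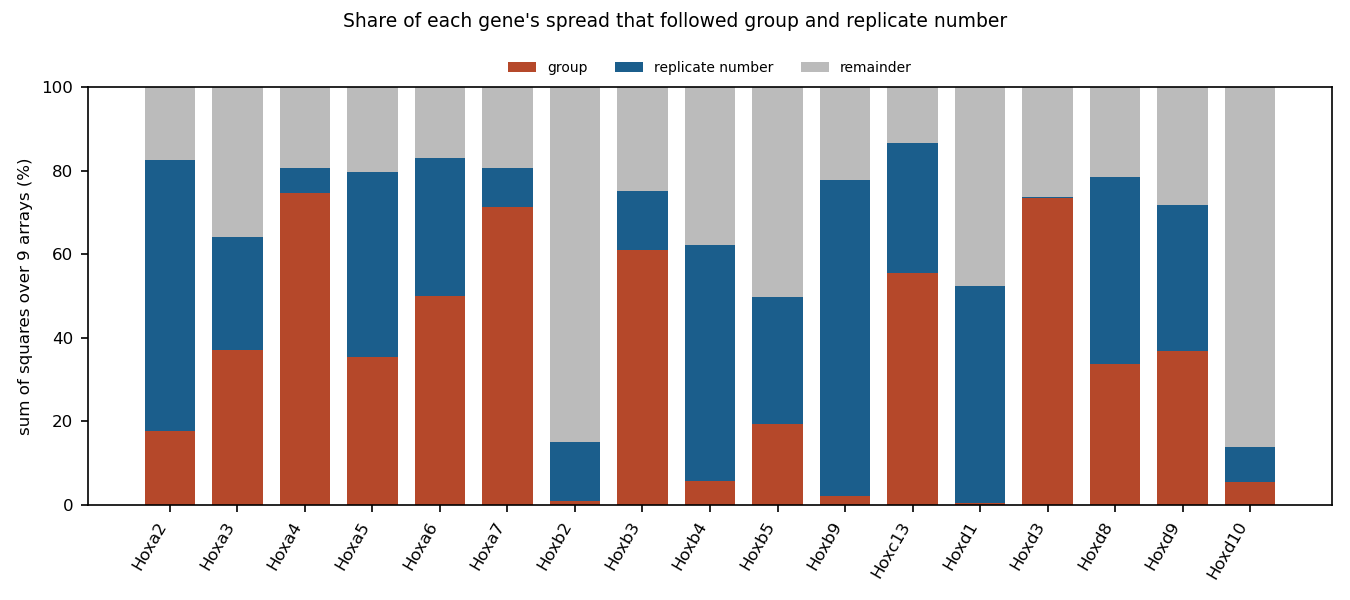
Share of the sum of squares over 9 arrays (vertical axis, percent) that followed group, replicate number and the remainder for each of the 17 tested Hox genes (horizontal axis). Group takes between 71.2% and 74.5% for Hoxa4, Hoxa7 and Hoxd3, and replicate number takes 75.7% for Hoxb9.

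Hox transcripts overlap their neighbours, and the arrays hold probe sets that were assigned to a pair of genes. In the RefSeq table the span of Hoxa3 overlaps those of Hoxa4, Hoxa5 and Hoxa6, and that of Hoxb3 overlaps Hoxb4. The span of Hoxd3 overlaps Hoxd4 over 7183 bases and that of Hoxd11 overlaps Hoxd10 over 2744 bases, so signal of all these genes may be shared. A probe set of Hoxd4 and Hoxd3 read 7.99, 7.58 and 7.50 with CD24 siRNA and IBMX/Dex, 7.99, 7.97 and 7.54 with scrambled siRNA and IBMX/Dex, and 8.22, 8.30 and 8.35 with vehicle. Vehicle arrays were the 3 highest. In a fit that added 1157 such shared probe sets, chosen after seeing the data, its log2 difference from vehicle was -0.60 ± 0.16 SE with CD24 siRNA (limma adjusted p = 0.0714 without the block and 0.0185 with it) and -0.46 ± 0.16 SE with scrambled siRNA (adjusted p = 0.146 without the block and 0.0483 with it).

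A probe set of Hoxa7 and Mira, an RNA annotated beside it, read 7.85, 7.85 and 7.32 with CD24 siRNA and IBMX/Dex, 7.39, 7.86 and 7.31 with scrambled siRNA and IBMX/Dex, and 7.88, 8.60 and 8.23 with vehicle. Again every treated array was below every vehicle array. The log2 difference from vehicle was -0.56 ± 0.23 SE with CD24 siRNA (limma adjusted p = 0.206 without the block and 0.0369 with it) and -0.72 ± 0.23 SE with scrambled siRNA (adjusted p = 0.109 without the block and 0.0136 with it). Both Hoxa11 probe sets, shared with its antisense RNA Hoxa11os, were dim and not tested. The first read 5.99, 6.12 and 6.28 with CD24 siRNA and IBMX/Dex, 6.05, 6.05 and 5.99 with scrambled siRNA and IBMX/Dex, and 5.89, 5.98 and 5.83 with vehicle, so every treated array was above every vehicle array. The second had means of 5.98, 6.09 and 6.00 in these groups, and its groups overlapped. A probe set of Hoxa3 and 5730446D14Rik had log2 differences from vehicle of -0.16 with CD24 siRNA and -0.06 with scrambled siRNA and did not pass (limma adjusted p = 0.433 and 0.802 without the block). Hoxb5 had a second probe set, whose differences from vehicle by number were -0.06, -0.05 and -0.29 with CD24 siRNA and -0.23, -0.10 and -0.29 with scrambled siRNA, while the brighter one gave positive group differences, so the pair disagrees on the sign.

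Of 9 other genes measured within the clusters, 3 were tested: Evx2, a homeobox gene next to Hoxd13, and the RNAs Hoxaas3 and Hoxd3os1. None passed without the block in either comparison with vehicle. Hoxd3os1, an antisense RNA at Hoxd3, read 6.63, 6.29 and 6.41 with CD24 siRNA and IBMX/Dex, 6.78, 6.50 and 6.50 with scrambled siRNA and IBMX/Dex, and 6.93, 6.56 and 7.12 with vehicle. It was lower with CD24 siRNA in the block fit (log2 difference -0.43 from vehicle, limma adjusted p = 0.165 without the block and 0.0338 with it), a call lost in 5 of 9 cases with 1 array left out (adjusted p up to 0.130). Hotair, an RNA from HoxC, and the microRNA genes Mir10b, Mir196a-1, Mir196a-2 and Mir615 lay under the filter, with 9-array means of 6.33, 4.35, 5.71, 4.70 and 5.76.

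The TALE cofactors were measured well above the filter, with 8 of 9 listed genes tested, and 0 passed without the block in any comparison. Mean log2 levels over the 8 were 8.61 to 8.68 on CD24 siRNA arrays, 8.58 to 8.78 on scrambled siRNA arrays and 8.66 to 8.68 on vehicle arrays. With the block Pknox2 was lower with CD24 siRNA (log2 difference -0.50 from vehicle, limma adjusted p = 0.265 without the block and 0.0300 with it). It read 8.14, 8.21 and 7.66 with CD24 siRNA and IBMX/Dex, against 8.78, 8.81 and 7.92 with vehicle, and its block call was lost in 5 of 9 cases with 1 array left out (adjusted p up to 0.129). Median differences of the list were 0.02 with scrambled siRNA and -0.03 with CD24 siRNA, against 0.02 for all genes in both.

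Of 22 tested Polycomb genes, 1 rose and 1 fell in each comparison with vehicle without the block, where 2.92% to 3.73% of all genes passed in a given direction. Jarid2, an accessory subunit of Polycomb complex PRC2, rose and Phf1, another PRC2-associated protein, fell. Jarid2 read 8.71, 9.02 and 9.13 with CD24 siRNA and IBMX/Dex, 8.64, 9.09 and 9.14 with scrambled siRNA and IBMX/Dex, and 7.89, 8.04 and 8.20 with vehicle, so all treated arrays were above all vehicle arrays. Its log2 difference from vehicle was 0.91 ± 0.17 SE with CD24 siRNA (limma adjusted p = 0.0164) and 0.91 ± 0.17 SE with scrambled siRNA (adjusted p = 0.0158). Phf1 fell by 1.03 on the log2 scale with CD24 siRNA (adjusted p = 0.0197) and by 0.79 with scrambled siRNA (adjusted p = 0.0495). With 1 array left out and no block, Jarid2 was lost without replicate 2 or 3 of the treated group (adjusted p = 0.0558 and 0.0663 with scrambled siRNA, 0.0639 and 0.0675 with CD24 siRNA). Phf1 was lost without CD24 siRNA replicate 1 or 2 in its comparison (0.0657 and 0.0755) and in 8 of 9 cases with scrambled siRNA (up to 0.142). With the block both kept their calls in all 9 cases.

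With the replicate block 4 Polycomb genes rose and 6 fell with CD24 siRNA, and 4 rose and 5 fell with scrambled siRNA, of 22, where 10.4% of all genes rose and 12.1% fell with CD24 siRNA and 11.9% rose and 11.4% fell with scrambled siRNA. The 4 that rose in each were Jarid2, the PRC2 core genes Ezh2 and Suz12, and the PRC1 chromobox gene Cbx2. Those that fell in each were Phf1, Ezh1, which is an alternative to Ezh2, and the PRC1 genes Pcgf1, Pcgf5 and Phc1, and Pcgf2 fell with CD24 siRNA. Ezh2 read 10.54, 10.92 and 10.41 with CD24 siRNA and IBMX/Dex, 10.16, 10.83 and 10.44 with scrambled siRNA and IBMX/Dex, and 9.87, 10.44 and 9.90 with vehicle. Its log2 difference from vehicle was 0.55 with CD24 siRNA (adjusted p = 0.181 without the block and 0.00547 with it) and 0.41 with scrambled siRNA (adjusted p = 0.319 without the block and 0.0196 with it). The list's median difference was 0.02 with CD24 siRNA and -0.01 with scrambled siRNA, against 0.02 for all genes. Phc1 kept its block calls whichever array was left out, and the other genes named here lost theirs in 0 to 7 of the 9 cases. Whether these genes bear on the Hox levels was not tested.

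Of 17 Trithorax, MLL and demethylase genes 0 passed without the block (list medians -0.01 with CD24 siRNA and 0.01 with scrambled siRNA), and with it Wdr5 and Aff1 rose with scrambled siRNA (adjusted p = 0.0472 and 0.0424), calls that were lost in 7 and 9 of 9 cases with 1 array left out (adjusted p up to 0.189 and 0.207). Of 9 tested retinoic acid and Cdx genes 0 passed without the block, and with it Cyp26b1, an enzyme that breaks down retinoic acid, rose in both comparisons and the binding protein gene Crabp2 rose with scrambled siRNA. Cyp26b1 read 8.73, 8.25 and 8.23 with CD24 siRNA and IBMX/Dex, 9.22, 8.46 and 8.02 with scrambled siRNA and IBMX/Dex, and 8.46, 7.78 and 7.68 with vehicle. Its log2 difference from vehicle was 0.43 with CD24 siRNA (adjusted p = 0.478 without the block and 0.0403 with it) and 0.59 with scrambled siRNA (adjusted p = 0.307 without the block and 0.0106 with it). With 1 array left out, Cyp26b1 lost its block call in 6 of 9 cases with CD24 siRNA (adjusted p up to 0.178) and 2 with scrambled siRNA (up to 0.0539), and Crabp2 in 6 (up to 0.134). Cdx1, Cdx2 and Cdx4, the homeobox genes that turn on posterior Hox genes in the embryo, lay under the filter.

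Of 19 tested homeobox, T-box and Twist genes that also mark position, 0 passed without the block, and their median difference was 0.13 with CD24 siRNA and 0.18 with scrambled siRNA, against 0.02 for all genes. With the block Prrx1, a marker of limb and lateral mesoderm fibroblasts, rose in both comparisons (log2 differences 0.36 and 0.37, adjusted p = 0.0305 with CD24 siRNA and 0.0270 with scrambled siRNA). Shox2 and Twist1 rose with scrambled siRNA (adjusted p = 0.0441 and 0.00806 with the block), and Irx1 fell with CD24 siRNA (adjusted p = 0.00574 with the block). Twist1 and Irx1 kept these calls without any 1 array, while Prrx1 lost them in 6 and 4 of 9 cases and Shox2 in 7.

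Among the fibroblast and pre-adipocyte markers 2 of 11 tested passed without the block in each comparison with vehicle. The list's mean log2 level over the 12 measured was 10.57 to 10.62 on CD24 siRNA arrays, 10.54 to 10.63 on scrambled siRNA arrays and 10.90 to 10.98 on vehicle arrays. Pdgfra and Pdgfrb, the PDGF receptor genes, fell, with log2 differences of -1.10 and -1.61 with CD24 siRNA and -1.04 and -1.66 with scrambled siRNA (limma adjusted p between 0.00154 and 0.0185), and with the block 4 of 11 were lower with CD24 siRNA and 5 with scrambled siRNA. Thy1, Cd34, Dlk1, Fn1, Dcn and Vim passed in neither fit, with differences of -0.14 to 0.24, the highest that of Thy1 (0.17 with CD24 siRNA and 0.24 with scrambled siRNA). Of 3 tested muscle markers Des, which fibroblasts can also express, fell (-0.71 and -0.70). Pdgfrb kept its call without any 1 array, while Pdgfra was lost in 4 of 9 cases in each comparison (adjusted p up to 0.0602 and 0.0649), and Des in 3 and 2 (up to 0.0676 and 0.0801). The adipocyte (3 tested), macrophage (3), endothelial (1), epithelial (2) and bone and cartilage (1) lists had 0 calls without the block, and with it Cd14 alone was higher, with scrambled siRNA, a call lost in 4 of 9 cases with 1 array left out (adjusted p up to 0.128). The part of these markers in the Hox differences was not tested.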

How the data were processed

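RNA of 9 samples was measured on 1 array each, in 3 groups of 3 taken, with the replicate numbers, from the sample titles. The deposited values are log2 expression values for 41345 probe sets, which the authors computed with the RMA method in oligo, per the submitters' processing notes. RMA corrects background, normalizes between arrays and summarises each probe set. Its version and the set of arrays normalized together are stated nowhere in the sources used here. Per the labels' protocols, 250 ng of RNA was labelled. Because RMA makes array distributions alike, a shift of most transcripts one way would be removed, and small differences of dim probe sets shrink.

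Names came from GEO's platform annotation: 23521 probe sets had 1 symbol, 1814 had several and 16010 were unnamed here. The values were used as deposited. Differences were fitted for 12630 genes by lmFit and eBayes of limma 3.58.1, run in R 4.3.3 over the 9 arrays, and all adjusted p-values are two-sided with Benjamini-Hochberg adjustment over those genes. The number of arrays limits the precision.

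The deviations of same-numbered arrays from their group means correlated at 0.377 to 0.732 across genes, other numbers at 0.116 at most, and the best match of 9 of 9 arrays shared its number. Numbers come from the titles and were taken to pair the samples, and the fit with the number as a block is printed where it changes a call.

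Given with the value on every array of the groups compared are Hox genes called in either fit and, per comparison, the 3 largest positive and 3 largest negative differences. The members and gene lists were chosen with earlier results of these data known. Promoter sequences are from RefSeq (GRCm38.p6), searched on both strands. In simulated data for scrambled siRNA against vehicle, 200 of 12630 genes were changed, and counts are means over draws. The fit without the block recovered 112 genes changed 1.5-fold and 184.4 changed 2-fold, with 4.8 and 8 false calls. The fit with the block recovered 101.2 and 174.8, with 4 and 9.8 false calls. The simulated data for the first fit held no shifts by replicate number, and those for the second did. The real arrays have such shifts, so these counts do not compare the fits. For the same reason they do not give the recovery of the fit without the block on the real arrays. Alternatives were the block, leaving out each array, 2 other filters, averaging a gene's probe sets, quantile normalization, centring arrays on their medians, robust fitting with an intensity trend, and only the 6 arrays compared.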

Additional observations from a re-analysis of the deposited data

Results flagged for a closer look

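A probe set assigned to both Hoxb3 and Hoxb2 (17268322) lay outside the main comparisons, which used probe sets of 1 gene, and was noticed because all 3 of its treated arrays were above all 3 vehicle arrays. It read 7.19, 7.37 and 7.09 with CD24 siRNA and IBMX/Dex, against 7.07, 7.07 and 7.01 with vehicle, as log2 levels, a difference of 0.165 (limma adjusted p = 0.475 without the replicate block and 0.275 with it). With scrambled siRNA and IBMX/Dex it read 7.21, 7.10 and 6.91, which overlapped vehicle. The probe sets of Hoxb3 alone and Hoxb2 alone had the opposite sign with CD24 siRNA, with log2 differences from vehicle of -0.12 and -0.03. For Hoxb3 alone, every CD24 siRNA array was below every vehicle array.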

How the results depend on the processing

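No Hox gene was called higher under any alternative, and none was called in either direction between CD24 siRNA and scrambled siRNA. Against vehicle, 0 Hox genes were lower without the block, except 1 with scrambled siRNA after quantile normalization, and 3 were lower with the replicate block in each comparison. Leaving out 1 array in the block fit gave 0 to 5 lower Hox genes with CD24 siRNA and 0 to 6 with scrambled siRNA. With scrambled siRNA the median Hox difference was -0.19 with a filter at the 75th percentile and -0.23 to -0.057 without 1 array. All genes called numbered 2831 with CD24 siRNA and 2942 with scrambled siRNA in the block fit, 461 and 389 on only the 6 arrays compared, and 321 to 857 and 313 to 852 without 1 array. Signs turned for small differences. Without 1 array, the difference of Hoxd10 from vehicle ran from -0.13 to 0.22 with CD24 siRNA and from -0.073 to 0.28 with scrambled siRNA, where that of Hoxb4 ran from -0.12 to 0.30. Between the siRNAs, Hoxa4 turned to 0.017 after quantile normalization. Without 1 array its difference there ran from -0.087 to 0.061, that of Hoxc13 from -0.028 to 0.28 and that of Hoxa2 from -0.29 to 0.0086, and in the block fit Hoxa4 ran from -0.11 to 0.074 and Hoxc13 from -0.011 to 0.31. The cause of these changes was not tested. Changes of sign or call were tallied for only a part of the tested Hox genes. Over all alternatives to the fit without the block, the tallied values kept their sign and side of the threshold 364 times. They came to pass 7 times, by the block or quantile normalization, and turned sign 10 times. No Hox gene passed in that fit, so it had no call to lose. For the fit with the block, the tallied values kept sign and side 76 times and lost a call 25 times. There they came to pass 3 times and turned sign 4 times. Hox genes outside this tally also came to pass without 1 array, since the count of lower genes rose from 3 to as many as 6. Dim probe sets limit what can be seen: 19 of 36 Hox genes were not tested.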
